A study of Homo sapiens with 8 samples.

Results

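miR-484 (listed as hsa-miR-484) is 1 of the 1818 mature microRNA (miRNA) names with a read in any of the 8 libraries of this series, and its row was taken by name from every library. It was selected on its read counts in these same libraries, so its levels are described here and carry no test. The libraries come from HCT116, a human colorectal carcinoma cell line, in which DICER was supplied as a rescue. In the 4 groups the rescue DICER was wild type (WT), R1855L, R821H or R1003Q, each name giving an amino acid substitution, and every group has 2 libraries. All groups, WT included, are rescues, while the labels leave the parental DICER genotype, the rescue vector and the clonality of the lines unstated. Small RNAs were cloned from 100 µg of total RNA by AQ-seq, a protocol designed to lower ligation bias. The labels do not say that the 2 replicates of a group were separate cultures, so their spread may be technical.

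Most miRNAs are cut from a long primary transcript by Drosha in the nucleus, exported as a hairpin and cut again by DICER in the cytoplasm, and 1 strand of the resulting duplex is loaded into an Argonaute protein. miR-484 takes another route. Its precursor is a short RNA polymerase II transcript whose own 5′ end is the base of the hairpin, so it keeps the 7-methylguanosine cap, needs no Drosha cut and is exported through exportin 1, but it still needs DICER. miR-320a has a precursor of the same kind, and mirtrons, hairpins released by splicing of short introns, are another class that needs DICER but not Drosha. The arginine replaced in R1855L lies in the C-terminal double-stranded RNA-binding domain. Known targets of miR-484 include FIS1, which encodes a mitochondrial fission protein.

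The mature sequence of miR-484 is shown with the other mature miRNAs of the RefSeq table (GRCh38.p14) that share its seed, bases 2 to 8 from the 5′ end, which pair with target mRNAs. The seed is in capitals.
miR-484: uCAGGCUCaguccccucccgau
miR-3155a: cCAGGCUCugcagugggaacu
miR-3155b: cCAGGCUCugcaguggga
The 3 sequences agree in the seed. miR-484 differs from both miR-3155 names at its first base and downstream of the seed. miR-3155b matches the start of miR-3155a and is only shorter (18 against 21 bases). miR-3155a had 0 to 4 reads per library and miR-3155b had none, so miR-484 was the only one of the 3 with enough reads to be tested. Its reads were whole numbers in all 8 libraries, whereas some names that share reads with near-identical relatives carry fractions.

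The MIR484 hairpin lies on the plus strand of chromosome 16 at chr16:15643294-15643372, and the mature miRNA at chr16:15643301-15643322 (GRCh38). In GENCODE release 29 the hairpin lies within the first exon and 5′ untranslated region of transcript NDE1-202, 27 bases after that transcript's start. The RefSeq table places the upstream NDE1 start 10 bases past the hairpin's end, so the annotations differ on whether the hairpin is inside NDE1, a gene for a dynein-binding protein of mitosis. MARF1, on the opposite strand, starts 128 bases upstream of the hairpin. The mature miRNA occupies bases 8 to 29 of the 79-base hairpin, on its 5′ side. RNAfold predicted 26 base pairs with a minimum free energy of -32.5 kcal/mol and a terminal loop of 4 bases, and 15 of the 22 mature bases were paired in that structure. By contrast, the mature names of miR-320b, miR-320c, miR-320d and miR-320e lie on the 3′ side of their hairpins. The sequence of miR-484 is 63.6% G or C, above the median of 50% over the 542 tested names with a RefSeq sequence, of which 106 were richer still.

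Library totals ran from 462805 to 4269231 reads, and a count of 0 allows up to 3 reads, or 0.703 to 6.48 CPM, the unit of level used here (reads relative to the library's total). The 7 listed epithelial miRNAs (the miR-200 family, miR-192 and miR-194) were read in every library, summing to 2945 to 3681 CPM. Summed blood-cell markers were at 406 to 923 CPM and muscle, liver and neuron markers at 629 to 1194 CPM. The blood sum came mainly from miR-142-3p (208 to 1284 reads) and miR-486-5p (34 to 258.5 reads), and the other sum from the neuronal miR-9-5p (246 to 3329 reads) and the hepatic miR-122-5p (39 to 259 reads). The myeloid miR-223-3p had 2 to 9 reads, the lymphoid miR-155-5p 0 or 1 and the muscle miR-1-3p 0 to 3. In R1855L the blood sums were 453 and 923 CPM against 740 and 406 in WT. Their part in the miR-484 result was not tested.

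miR-484 was low in R1855L alone, and its levels in the 3 other groups lay close together. WT replicates 1 and 2 held 1547 and 3993 miR-484 reads, which is 1173 and 1037 CPM after TMM scaling, a correction for library size and composition. R1855L replicates 1 and 2 held 42 and 26 reads, or 20.6 and 47.8 CPM. R821H replicates 1 and 2 held 3075 and 1088 reads, or 1047 and 1294 CPM, and R1003Q replicates 1 and 2 held 1409 and 967 reads, or 1258 and 1373 CPM. Only the R1855L libraries are low. The other 6 libraries span 1037 to 1373 CPM, a 1.32-fold range, and the lowest of them is 21.7-fold above the higher R1855L library.

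**Figure D1:**
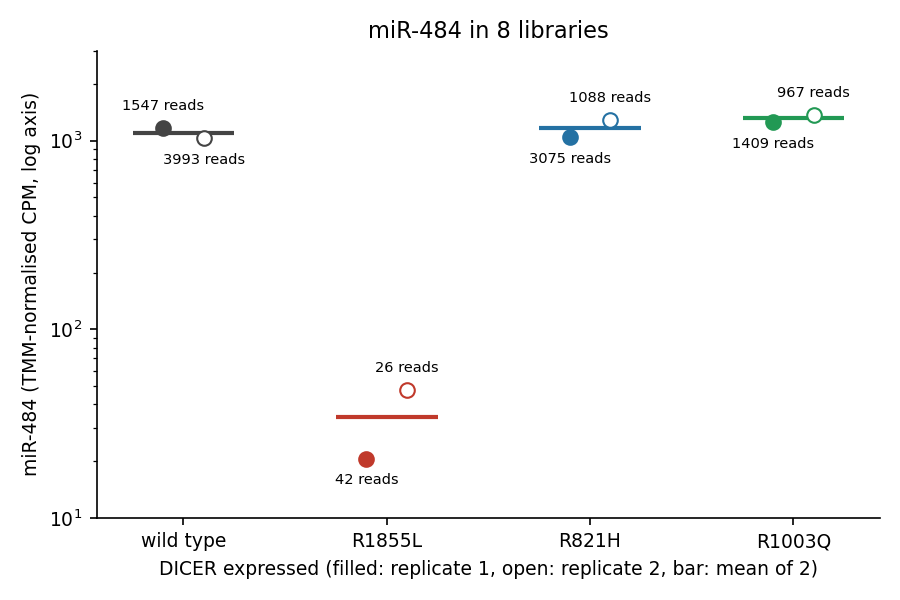
Level of miR-484 in TMM-normalised CPM (log axis) in each of the 8 libraries, by the DICER expressed, with the read count beside each point and a bar at the mean of the 2 libraries. The R1855L libraries sit at 20.6 and 47.8 CPM and all 6 others between 1037 and 1373 CPM.

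Both R1855L libraries were deep enough to hold many more miR-484 reads. At the WT mean level R1855L replicate 1 would have held 2251 reads and replicate 2 would have held 602. The exact Poisson 95% intervals of the observed counts are 30.3 to 56.8 and 17.0 to 38.1 reads. Both counts are well above the 3 reads that a count of 0 allows, so miR-484 was still detected in R1855L, at 1.87% and 4.32% of the WT mean. These intervals cover counting error only, as no molecular identifiers are described for the reads.

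As a share of all miRNA reads, without TMM scaling, miR-484 showed the same order of groups except between R821H and WT. In WT it made up 1360 (exact Clopper-Pearson 95% interval 1293 to 1429) and 935 (907 to 965) CPM of the reads. The R1855L libraries had 18.7 (13.5 to 25.3) and 56.2 (36.7 to 82.3). In R821H it made up 921 (888 to 954) and 1292 (1217 to 1372), and in R1003Q 1232 (1169 to 1298) and 1431 (1342 to 1524). In all 4 groups the counting intervals of the 2 replicates do not overlap. In WT, R1855L and R821H the deeper library had the lower miR-484 level, by 1.13-fold in WT, 1.24-fold in R821H and 2.32-fold in R1855L on the TMM scale, and 30.7% of the 625 tested names were lower in the deeper library of all 3. WT replicate 2, R1855L replicate 1 and R821H replicate 1 are the deep libraries, and both R1003Q libraries are shallow.

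Ranked by abundance among the 625 tested names, miR-484 stood between 79th and 93rd in the 6 libraries outside R1855L. It stood 412th in R1855L replicate 1 and 342nd in replicate 2. So a miRNA of the upper part of the profile stood in the middle or lower part in R1855L, while the abundance curves of the libraries lay close together over most ranks.

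**Figure D2:**
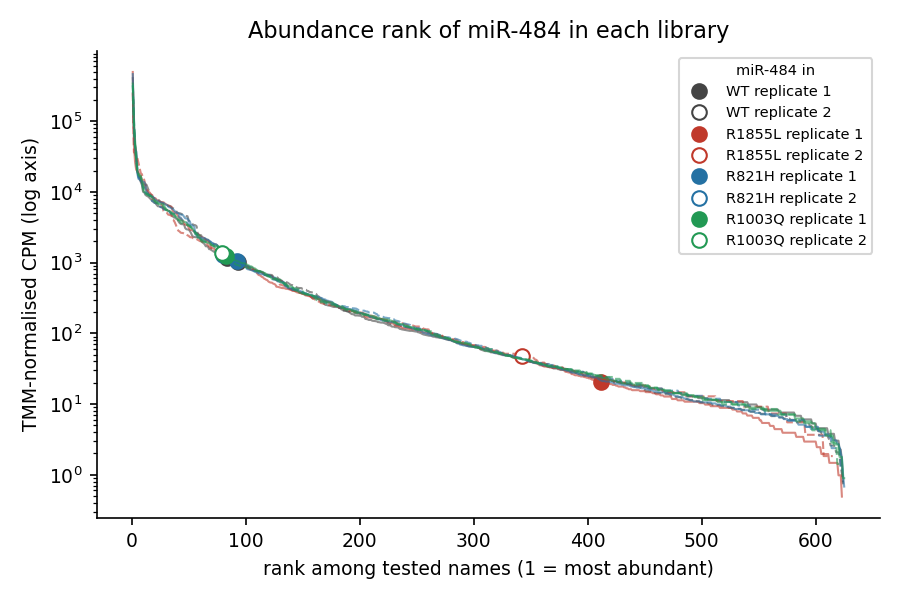
TMM-normalised CPM (log axis) of the tested names in order of abundance, one line per library (solid for replicate 1, dashed for replicate 2), with a circle at miR-484. The circles of R1855L lie at ranks 412 and 342 and the other 6 between 79 and 93.

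Group means ordered R1003Q (1315 ± 81.3 CPM, SD, n = 2), R821H (1171 ± 174), WT (1105 ± 96.3) and R1855L (34.2 ± 19.2). R1003Q and R821H, and R821H and WT, are neighbours in this order that differ by less than the SD of one of the pair. The step from WT to R1855L is the only one larger than the spread between replicates. The fitted log2 fold change of R1855L against WT, from an edgeR model over all 8 libraries, was -5.11 (SE 0.43), a 34.5-fold lower level. Library by library, R1855L replicate 1 was 56.9-fold below WT replicate 1 and 50.3-fold below WT replicate 2, and R1855L replicate 2 was 24.6-fold and 21.7-fold below them. The value moved to -5.76 without R1855L replicate 2 and to -4.64 without R1855L replicate 1, so the size of the difference varies between the R1855L libraries although each is far below all others.

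R821H and R1003Q were close to WT for miR-484. The fitted log2 fold change was 0.08 (SE 0.35, 95% interval -0.73 to 0.90) in R821H and 0.25 (SE 0.35, -0.56 to 1.07) in R1003Q. The WT and R821H libraries overlap. On the TMM scale both R1003Q libraries lie above both WT libraries, as did 22.9% of the 625 names. As shares of reads the 2 groups overlap, and with a term for library depth the log2 fold change was 0.05. R1003Q differed from R821H by 0.17 (SE 0.35, -0.65 to 0.98), and the libraries of the 2 groups overlap. With a term for deep and shallow libraries in the model this difference turned to -0.03. The intervals still hold differences of up to 0.90 and 1.07 log2 units above WT, so they do not show equal levels. Against R1855L, miR-484 was higher by 5.19 (SE 0.43) in R821H and by 5.36 (SE 0.44) in R1003Q. The comparisons with WT share the WT libraries and those with R1855L share the R1855L libraries.

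Among all names, miR-484 had the lowest fitted log2 fold change of R1855L against WT, which is part of what it was chosen for. Over the 625 names the median was 0.13 (0.12 to 0.16 under the other scalings) and the central 90% of values ran from -1.90 to 1.08, and 36 names (5.76%) were called at an edgeR adjusted p under 0.05, 34 lower (5.44%) and 2 higher (0.32%). With the term for library depth the calls were 104 lower and 73 higher, so the balance of directions depends on the model. Of the 89 other names at least as abundant as miR-484 in WT, 11 were called lower and none higher, with a median of 0.02. The lowest of those 89 was miR-99b-5p at -2.25 (SE 0.49). In R821H and R1003Q, edgeR called 0 of 625 names (0%, with 20 and 31 at an unadjusted p under 0.05, and 1 and 0 by DESeq2), and miR-484 stood 343rd and 419th from the lowest fold change. It was thus at the edge of the distribution in R1855L and in its middle in the other mutants.

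**Figure D3:**
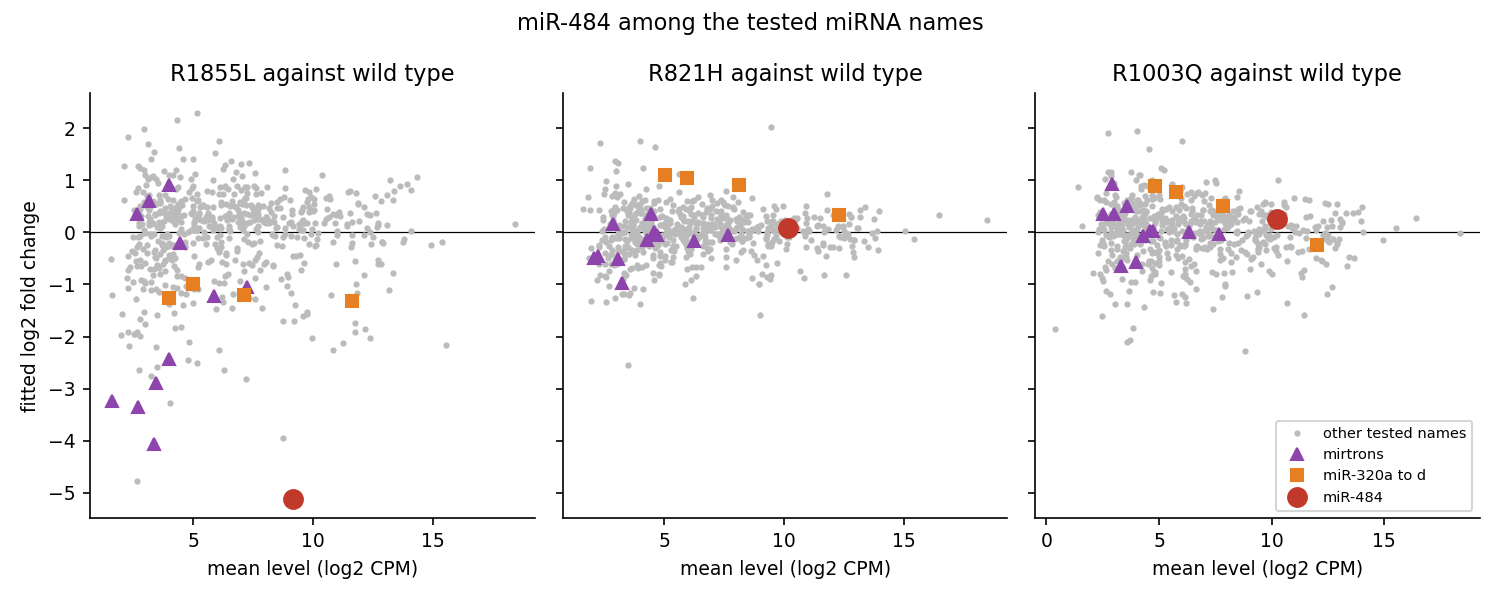
Fitted log2 fold change against WT (y) and mean level in log2 CPM (x) of the 625 tested names in R1855L, R821H and R1003Q, with miR-484, miR-320a to d and the tested mirtrons marked. miR-484 lies at -5.11 in R1855L and at 0.08 and 0.25 in the other mutants.

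The other names on the capped-hairpin list were also below WT in R1855L, but by far less than miR-484, and none was called. The list holds the miR-320 family, of which only miR-320a is described above as having a capped precursor. Whether the precursors of its relatives are capped was not tested. Besides miR-484, 5 names of the list were in the files and 4 could be tested. Of these, 0 of 4 were called lower (5.44% of all names were), and all 4 had fold changes below 0 (42.4% of all names), with a median log2 fold change of -1.23 beside 0.13 over all names. The median moved with single libraries: it was -0.46 without R1855L replicate 1, -0.66 without WT replicate 1 and -2.18 without R1855L replicate 2. miR-320a had 3079 and 5917 CPM in WT and 2284 and 1343 CPM in R1855L, so the groups do not overlap (21.4% of all names had both R1855L libraries below both WT libraries). Its log2 fold change was -1.31 (SE 0.39, edgeR adjusted p = 0.114).

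miR-320b, miR-320c and miR-320d gave -1.20 (SE 0.73), -0.99 (SE 0.81) and -1.26 (SE 1.08). Their R1855L replicate 2 was near WT: miR-320b stood at 252 and 131 CPM in WT and at 43.2 and 129 CPM in R1855L. miR-320b, miR-320c and miR-320d, close relatives in sequence, carried fractions of a read in 2, 2 and 7 libraries, and miR-320a in none. With a term for deep and shallow libraries in the model, all 4 were called lower in R1855L (-1.29, -1.31, -1.18 and -1.25 from miR-320a to miR-320d), beside 104 of 625 names (16.6%) called lower under that model. In R821H the 4 names had log2 fold changes of 0.33 to 1.10 and in R1003Q of -0.24 to 0.89, and none was called.

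A ratio taken within each library does not depend on library scaling. For every 1000 reads of miR-320a the WT libraries held 381 and 175 reads of miR-484 and the R1855L libraries 9.03 and 35.6. The same ratio was 181 and 235 in R821H, and 346 and 345 in R1003Q. The R1855L ratios are the lowest and do not overlap any other group. On the log2 scale the mean ratio was -1.95 ± 0.79 (SD, n = 2) in WT and -5.78 ± 1.41 in R1855L, a difference of -3.83. Set against miR-21-5p, the most abundant name and a miRNA raised in many carcinomas, the log2 ratio differed by -5.23 between R1855L and WT. It was -8.19 ± 0.66 (SD, n = 2) in WT and -13.4 ± 1.57 in R1855L. The difference was -0.19 between R821H and WT and 0.22 between R1003Q and WT. The R1855L value of miR-484 was thus low relative to the other capped name and relative to the most abundant miRNA.

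Mirtrons give the second Drosha-independent reference. Of 20 listed mirtron names in the files 11 were tested, and 4 of 11 were called lower in R1855L (5.44% of all names) and none higher, with a median of -1.22 and values from -4.06 to 0.91. The called names were miR-1229-3p (-4.06, SE 0.65), miR-1228-3p (-3.35, SE 0.73), miR-1226-3p (-2.89, SE 0.66) and miR-1224-5p (-2.42, SE 0.55), at edgeR adjusted p between 0.0108 and 0.0487. They are rare: miR-1229-3p had 29 and 69 reads in WT and 3 and 0 in R1855L, and miR-1228-3p had 18 and 41 in WT and 3 and 0 in R1855L. Some of the 11 tested names are both strands of the same hairpin, so they are not 11 separate mirtrons. The other strand of miR-1226, miR-1226-5p, was at -0.21 (SE 0.39), and that of miR-1228, miR-1228-5p, at -3.23 (SE 1.48). Neither was called. The abundant mirtron, miR-877-5p, had 203 and 210 CPM in WT and 103 and 95.5 CPM in R1855L (log2 -1.06, SE 0.25, adjusted p = 0.0519). Relative to miR-877-5p, miR-484 was lower by 4.06 log2 units in R1855L than in WT (SD 0.93 in R1855L and 0.16 in WT, n = 2 each).

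The mirtron count rests on single libraries, on scaling and on the model. The count was 5 by DESeq2, 6 without a filter and 6 with the depth term, under which 16.6% of all names were called lower. It was 0 without R1855L replicate 1, 1 without WT replicate 1, without R1855L replicate 2 or without either R1003Q library, 1 under total-count scaling and 0 in a fit to only the 4 libraries compared. miR-1225-5p, miR-1225-3p and miR-1227-3p had fitted log2 fold changes above 0 (0.91, SE 0.88, then 0.60, SE 0.43, and 0.34, SE 0.58), and none of the 3 was called. miR-451a, whose hairpin is matured by Argonaute 2 without DICER, had a log2 fold change of 0.25 and was not called.

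**Figure D4:**
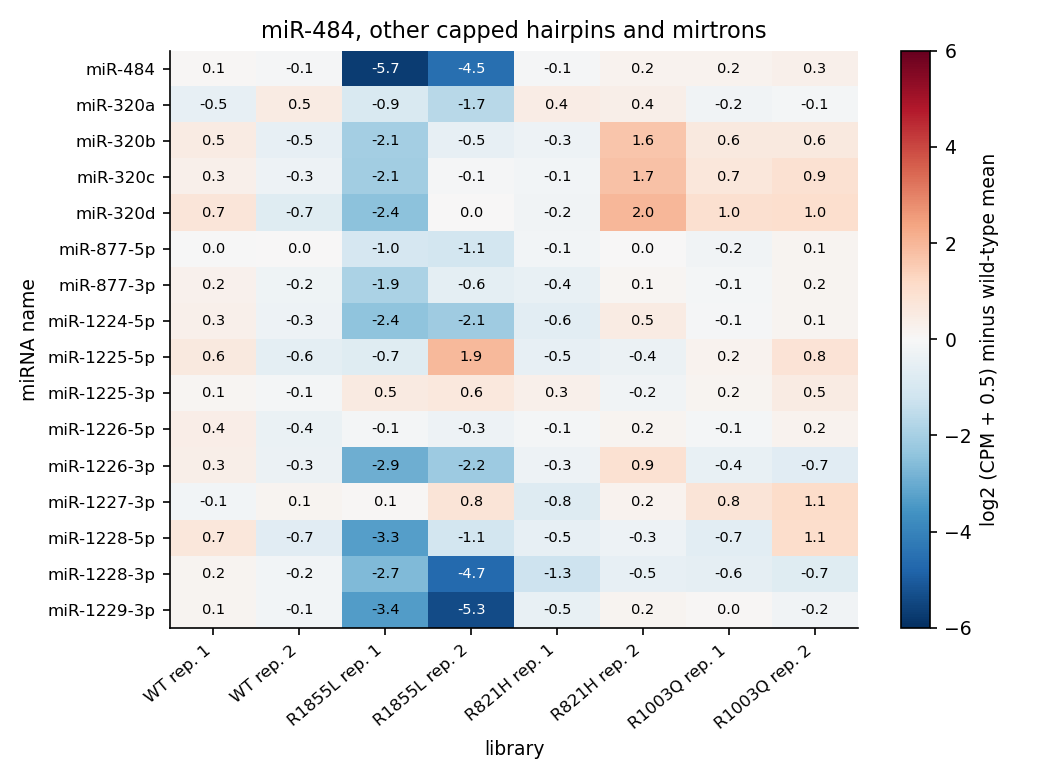
Level of miR-484, miR-320a to d and the 11 tested mirtrons in each library, as log2 (CPM + 0.5) minus the mean of the 2 WT libraries (colour and printed value). miR-484 is low in both R1855L libraries, while miR-320b to d are low mainly in R1855L replicate 1.

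The names closest to miR-484 in pattern were sought among 338 others with a mean of at least 50 CPM, by Pearson's r of log2 CPM over the 8 libraries. The 5 highest were miR-151a-3p (r = 0.99), miR-203a-3p (0.988), miR-222-3p (0.986), miR-23b-3p (0.984) and miR-27b-3p (0.984). All 8 points share the low R1855L pair, which sets these values: over the 6 other libraries r was 0.57, 0.19, 0.60, -0.06 and -0.85 in the same order. None of the 5 is among the 5 closest by Spearman's rho. Likeness here means a drop in both R1855L libraries and level values elsewhere. Each of the 5 fell in R1855L, by 1.75, 1.60, 2.16, 1.17 and 1.86 log2 units in the same order, at edgeR adjusted p between 0.00513 and 0.0237, and their choice rests on the same libraries. miR-222-3p represses the cell-cycle inhibitor p27, and miR-23b-3p and miR-27b-3p come from neighbouring hairpins on chromosome 9. These differences are smaller than that of miR-484. For miR-203a-3p, a miRNA of differentiating epithelium, the libraries held 1164 and 1119 CPM in WT and 359 and 393 CPM in R1855L.

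Next to miR-484 in the order of fold change, among called names averaging 50 CPM or more across the 4 R1855L and WT libraries, came miR-331-3p, miR-615-3p, miR-3200-3p, miR-99b-5p and miR-203b-3p. Without those limits miR-6765-3p came next to miR-484, at -4.76 (SE 1.19) and a mean of 12.2 CPM in WT. The mature sequences of the 5 are shown because they have the next lowest fold changes under those limits, again with the seed in capitals.
miR-331-3p: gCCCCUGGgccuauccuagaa
miR-615-3p: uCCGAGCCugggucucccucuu
miR-3200-3p: cACCUUGCgcuacucaggucug
miR-99b-5p: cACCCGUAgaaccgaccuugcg
miR-203b-3p: uUGAACUGuuaagaaccacugga
The 5 seeds differ from each other and from that of miR-484. By name 4 of the 5 are 3p strands, and miR-99b-5p is a 5p strand. miR-331-3p, a repressor of the receptor gene ERBB2, was at 905 and 683 CPM in WT and 64.8 and 34.9 CPM in R1855L. Of these 5 it was the closest in size to the difference in miR-484. Unlike miR-484, it was lower in R1855L replicate 2 than in replicate 1. miR-615-3p, from a HOXC intron, was at 301 and 205 CPM in WT and 22.6 and 53.3 CPM in R1855L, and like miR-484 it was higher in replicate 2. miR-99b-5p, of a family that represses the kinase gene MTOR, shared that order, at 3848 and 2220 CPM in WT and 372 and 906 CPM in R1855L. miR-203b-3p, whose hairpin overlaps that of miR-203a on the opposite strand of chromosome 14, was at 108 and 114 CPM in WT and 25.5 and 20.2 CPM in R1855L. In R821H and R1003Q these 5 names had log2 fold changes between -0.42 and 0.29, and none was called.

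**Figure D5:**
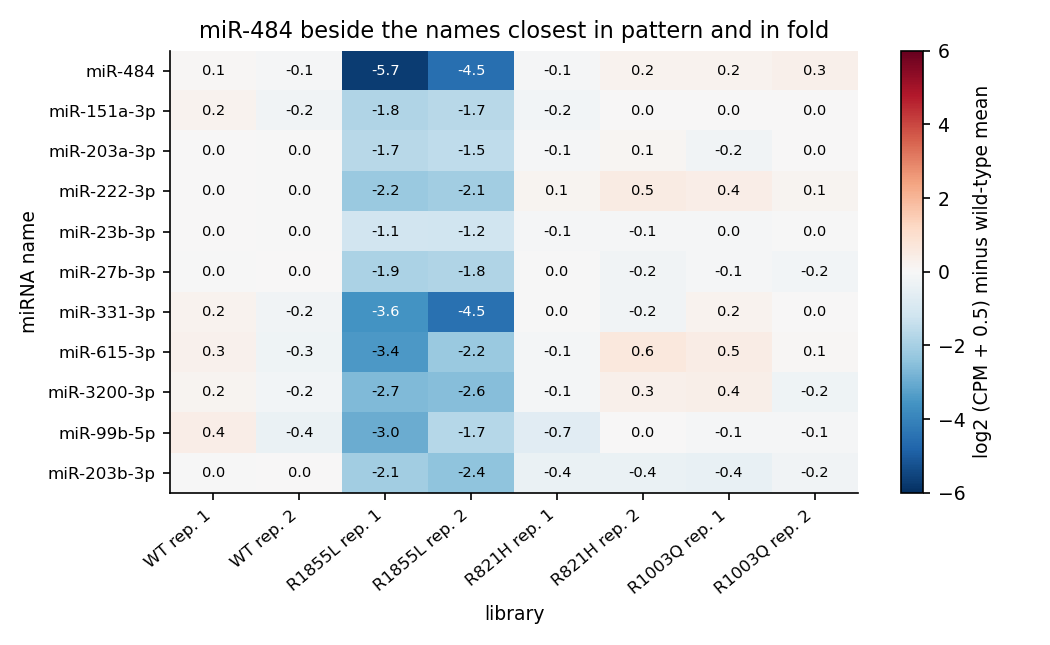
Level of miR-484, of the 5 names closest to it in pattern (miR-151a-3p to miR-27b-3p) and of the 5 names next to it in fold change (miR-331-3p to miR-203b-3p) in each library, as log2 (CPM + 0.5) minus the mean of the 2 WT libraries. All 11 are lower in both R1855L libraries than in any other library (14.4% of the 625 names were). They were chosen on these same libraries, so this is no separate result.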

How the data were processed

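Per mature miRNA name and library, the authors deposited an estimated count of reads, without normalisation or pooling. Fractions of a read occur in 19 to 33 names of a library. A name that a library does not list was given 0. Tools listed in the submitters' processing notes are BWA, cutadapt and bedtools, beside the builds mm10 and hg38, and their versions, roles and settings and the miRNA annotation used are not given there.

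Counts were rounded and fitted with edgeR 4.0.16 in R 4.3.3: filterByExpr left 625 of 1818 names, holding 99.8% or more of each library's reads, followed by TMM scaling and a robust quasi-likelihood model of group over all 8 libraries. P-values were Benjamini-Hochberg adjusted over the 625 names, and a name was called below 0.05. The SE is the absolute log2 fold change over the square root of F, and log2 CPM used a prior count of 2. In a test of the model, counts were simulated independently for each library from the mean of each name and the fitted spread. The model recovered 77.6% of 4-fold and 35.8% of 2-fold changes in R1855L, and 4 of 146 calls were false. The simulation changed 200 of the 625 names, by 1, 2 or 5 log2 units, whereas the real R1855L comparison called 36. The simulated counts also held no shared difference between deep and shallow libraries. These rates therefore need not hold for the real counts. The hairpin was folded with RNAfold 2.7.2, and figures were drawn with matplotlib 3.10.9.

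Groups and replicate numbers came from the titles. The replicate numbers do not pair the libraries. Correlations of replicate differences were -0.70 for WT and R1855L, -0.68 for WT and R821H and 0.57 for R1855L and R821H. Their signs follow which replicate is the deep one, and the correlations with R1003Q lay between -0.12 and 0.09. The member, the lists and the tests were chosen with earlier results of these data known. Named are miR-484, the tested capped-hairpin names, called mirtrons and the most abundant one, names sharing the seed, the 5 closest in pattern, the 5 next in fold change, miR-21-5p and miRNAs within 1 Mb. Alternatives were DESeq2 1.42.0, other scalings and filters, fewer libraries, a replicate block and a depth term.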

Additional observations from a re-analysis of the deposited data

How the results depend on the processing

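Over 8 alternatives the log2 fold change of R1855L against WT lay between -5.26 and -5.07, with -5.14 under the replicate block, and between -5.76 and -4.64 with single libraries left out. For R1003Q against WT it was 0.0487 with the depth term and 0.0674 to 0.341 with single libraries left out, and in R821H it lay between -0.05 and 0.07 over the alternatives, so its sign there is not fixed. R1003Q against R821H turned from 0.17 to -0.03 with the depth term. The difference in log2 ratio of miR-484 to miR-320a lay between -4.82 and -2.84 without single libraries.

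Counts over all names depended on the model. For R1855L against WT, 14 names were called by total counts, 19 with the replicate block, 177 with the depth term, 2 with only the 4 libraries compared and 15 to 27 without single libraries. For R821H against WT, DESeq2 called 1 and the depth term 16, and for R1003Q against WT the depth term called 2. For R821H against R1855L the counts were 39 by DESeq2, 8 by total counts, 40 without a filter, 15 with the block, 114 with the depth term, 6 with 4 libraries and 8 to 24 without single libraries. For R1003Q against R1855L they were 40 by DESeq2, 11 by total counts, 13 with the block, 93 with the depth term, 13 with 4 libraries and 2 to 19 without single libraries. A block with the WT numbers exchanged, chosen after seeing the data, gave 57 calls for R1855L and 0 for R821H. The median of the other names on the capped-hairpin list lay between -2.18 and -0.46 without single libraries. Those called lower were 1 by DESeq2, 2 without a filter, 4 with the depth term and 0 without any single library. Mirtrons called lower were 1 by total counts, 1 with the 50 CPM filter, 1 with the block, 0 with 4 libraries and 0 to 3 without single libraries. The depth of R1855L replicate 2 limits its 26 miR-484 reads to a counting interval of 17.0 to 38.1.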

Other observations

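miR-484 is the most abundant miRNA of its stretch of chromosome 16. Within 1 Mb on either side RefSeq lists 14 other mature names, several of them with 2 to 4 loci each. miR-6506-5p and miR-6506-3p, from the nearest hairpin, had no read in any library, and neither had miR-3670 or miR-1972. miR-6511a-5p and miR-6511b-5p carry identical counts, 19 and 36 reads in WT and 22 and 8 in R1855L, and had a log2 fold change of 0.09 (SE 0.41, edgeR adjusted p = 0.916). miR-6511a-3p and miR-6511b-3p had -0.27 (SE 0.54) and -0.70 (SE 0.47) and were not called either. None of these 4 tested names was called, but with 5.76% of all names called, so few names cannot differ from that share. They had 6 to 78 reads per library and 2 to 4 loci each, so their reads cannot be placed at 1 locus.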
